A study of Bos taurus with 29 samples.

Results

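Bovine endometrial explants cultured with a single embryo made in vitro (EE-IVF) were compared with explants cultured with a single embryo made in vivo (EE-AI), each embryo being at day 7. The comparison rests on 6 of the 29 samples of the series, 3 libraries per group, chosen by their titles: numbers 25, 26 and 27 for EE-IVF against 19, 20 and 21 for EE-AI. The libraries were matched in the order of these numbers, 19 with 25, 20 with 26 and 21 with 27. The 3 libraries of explants cultured without an embryo (EE), numbers 13, 14 and 15, were matched in the same order and entered the fit to add to the estimate of the spread. Each number is written below as replicate 1, 2 or 3, and the libraries of 1 number order form matched set 1, 2 or 3. The labels give the tissue as endometrium from a slaughterhouse source and the molecule as polyA RNA. They give no animal, cycle stage or culture time, and they state no link between libraries of a matched set, so the p-values measure only the spread between these samples.

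The endometrium is the inner lining of the uterus, made of luminal and glandular epithelium over a vascular stroma that also holds immune cells. At the age used here the bovine embryo is a free-floating blastocyst that lives on uterine secretions, well before it elongates and attaches. Ruminant embryos signal to the uterus mainly by interferon tau, a secreted protein of the trophectoderm that induces interferon-stimulated genes and protects the corpus luteum from luteolysis. Embryos made in vitro come from oocytes matured and fertilised outside the cow. Those made in vivo (AI, here read as artificial insemination) reach the uterus through the oviduct. In explants, which are pieces of whole tissue, a lower level can mean fewer cells of a type or less RNA per cell, and these cannot be told apart.

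The tables used here name genes by Ensembl ID alone, and 0 of the 18180 IDs could be paired with a symbol. Interferon-stimulated genes and markers of epithelium, stroma or blastocyst were therefore not analysed here, and the labelled tissue was not checked against its markers. For the same reason no sequence is shown, and at most 2 IDs per direction are named by rule. The 6 libraries held between 6067951 and 8083238 counts, and between 17667 and 17789 genes had at least 1 count in a library. At a group mean of at least 1 CPM (counts scaled to a common library total) there were 15289 genes in EE-AI and 15306 in EE-IVF, and at 1000 CPM or more there were 77 and 72. The 10 most abundant genes took between 4.99% and 6.05% of a library, and the counts were spread alike in both groups, with 987 genes making up 50% of the CPM in EE-AI and 992 in EE-IVF.

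Libraries of a matched set lay closer to each other than libraries of 1 treatment did. Across the 15077 genes tested, the log2 CPM difference between EE-IVF and EE-AI had an SD over genes of 0.35 in set 1, 0.39 in set 2 and 0.46 in set 3. The other 6 pairings of an EE-IVF with an EE-AI library gave SDs between 0.57 and 0.74. Libraries of 1 group were as far apart, with SDs between 0.56 and 0.76 among EE-AI and between 0.54 and 0.64 among EE-IVF. The sum of squares of a gene's log2 CPM was taken over the 9 explant libraries. Of it, the matched set took a median of 53.7% and the 3 treatments took 11.6%, with 2 degrees of freedom each. The rest took a median of 27.3%, with 4 degrees of freedom. By degrees of freedom alone, the set and the treatments would each take 25% and the rest 50%. The set took more than the treatment in 12228 genes (81.1%). These shares are across genes, which are not independent replicates, and what the sets share was not tested.

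**Figure D1:**
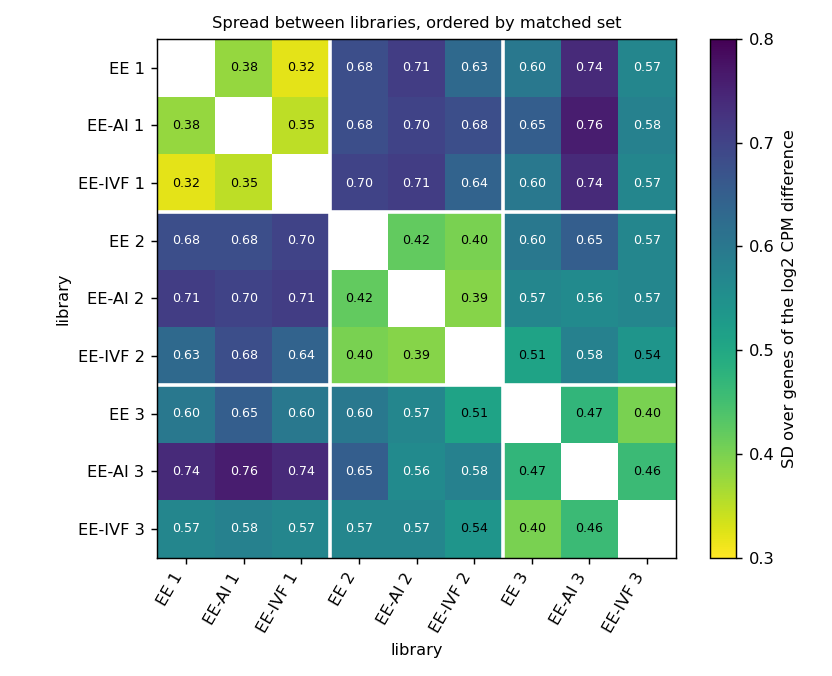
Each cell gives the SD over 15077 genes of the log2 CPM difference between 2 explant libraries, with both axes ordered by matched set and white lines between the sets. The blocks along the diagonal hold the matched libraries, and EE-AI 3 is the one farthest from its own set, at 0.46 from EE-IVF 3 and 0.47 from EE 3.

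Setting EE-IVF beside EE-AI addresses the origin of the embryo, as both held 1 embryo of the same age. By edgeR with the matched sets as a block, 0 of 15077 genes passed an adjusted p of 0.05 (a background of 0% called), and the lowest adjusted p was 0.458. An unadjusted p under 0.05 was found by edgeR in 1243 genes (8.24%), 840 higher in EE-IVF (5.57%) and 403 lower (2.67%). For both directions together, 5% of the genes tested is 754. With the same block an unadjusted p under 0.05 was found by limma voom in 1244 genes (8.25%) and by DESeq2 in 672 (4.46%). The DESeq2 number is below 754. At a stricter unadjusted p of 0.01 there were 233 higher and 56 lower genes by edgeR, and at 0.001 there were 22 and 1. The same shares of the genes tested are 151 and 15, each for both directions together. DESeq2 with the same block called 20 genes, all higher in EE-IVF, and limma voom with the same block called 0, so whether any gene passed depended on the tool.

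Most estimated differences were small, and the edgeR fit with the matched sets as a block bounded them. The median absolute log2 fold change was 0.14, with a median standard error of 0.17. The 95% interval lay wholly between -1 and 1 for 12836 genes (85.1%), so a 2-fold difference was outside the interval in those genes, each taken alone. It lay within a 1.5-fold difference in either direction for 8456 genes (56.1%). Both shares rest on the matched sets as a block, a link that the labels do not state. They are not given for a fit without the block. Precision followed the level. Among the least abundant 5th of genes, at 0.673 to 5.52 CPM, 44.1% of the intervals lay between -1 and 1, and among the most abundant 5th, from 75.9 CPM up, 98.1% did. Only 118 genes had an estimate past a log2 fold change of 1 in either direction, 75 above 0 and 43 below, and of these 60 and 29 had an unadjusted p under 0.05 by edgeR.

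The 100 most abundant genes, all at a mean of at least 875 CPM, had small estimated differences between the embryos. Their log2 fold changes ran from -0.30 to 0.96 with a median of -0.05, and 99 of the 100 intervals lay between -1 and 1, against 85.1% over all genes. By edgeR 2 of them were higher and 2 lower at an unadjusted p under 0.05, against 5.57% and 2.67% over all genes.

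**Figure D2:**
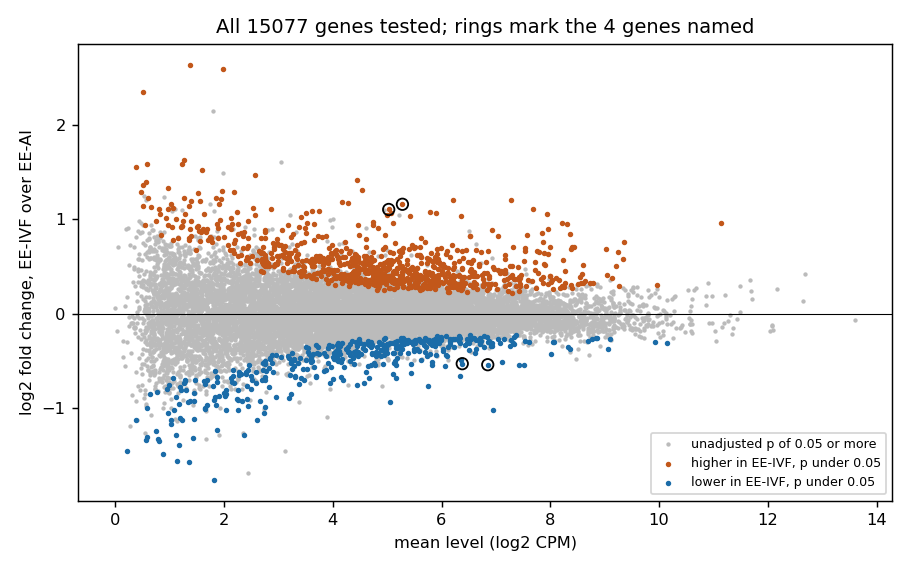
Each point is 1 of 15077 genes, with its mean level over the 9 explant libraries on the horizontal axis (log2 CPM) and the edgeR log2 fold change of EE-IVF over EE-AI on the vertical axis. Coloured points have an unadjusted p under 0.05, 840 above 0 and 403 below, and the 4 ringed genes are those named in the text.

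Among genes at an unadjusted p under 0.05 by edgeR, the surplus of higher over lower genes was seen in every 5th of level and of gene length. In 5ths of the mean CPM, from the least to the most abundant, 102, 142, 221, 205 and 170 genes were higher at an unadjusted p under 0.05 by edgeR, and 80, 75, 95, 90 and 63 were lower. In 5ths of the gene length behind the FPKM, from the shortest to the longest, 174, 186, 169, 161 and 150 were higher and 77, 74, 77, 79 and 96 lower. Over all genes tested there was no such surplus, with 7310 log2 fold changes above 0 and 7767 below. Their median was -0.007, a centre that the TMM scaling sets near 0.

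ENSBTAG00000005280 had the lowest p of the comparison and is named as the first of the 2 genes higher in EE-IVF. It was at 39.3, 49.1 and 52.3 CPM in EE-IVF replicates 1, 2 and 3, and at 26.4, 16.4 and 21.5 CPM in EE-AI. Every EE-IVF library was above every EE-AI library. Its means were 46.9 ± 6.78 and 21.4 ± 4.99 CPM (SD, n = 3), and edgeR estimated a log2 fold change of 1.16 (95% interval 0.75 to 1.57). Within the matched pairs the log2 CPM difference was 0.57, 1.55 and 1.27. The adjusted p was 0.458 by edgeR and 0.00086 by DESeq2. EE stood at 54.2, 36.2 and 51.9 CPM, so EE-AI was below EE as well as below EE-IVF in each set. As with each named gene, the pick by p used the same EE-AI values, so EE is not an independent reference. Per length it was expressed at 10.2, 12.1 and 13.1 FPKM in EE-IVF and at 6.64, 4.18 and 5.39 FPKM in EE-AI, over a gene length of 3946 bases.

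ENSBTAG00000014692, the other gene named as higher, was at 37.5, 28.2 and 48.4 CPM in EE-IVF and at 27.2, 9.29 and 19.2 CPM in EE-AI. The lowest EE-IVF library lay just above the highest EE-AI library, and within each matched pair EE-IVF was higher, by 0.46, 1.55 and 1.31 on the log2 scale. Means of 38.0 ± 10.1 and 18.6 ± 8.98 CPM (SD, n = 3) went with an estimated log2 fold change of 1.10 (95% interval 0.68 to 1.53) and an adjusted p of 0.458 by edgeR and 0.0026 by DESeq2. EE was at 50.1, 27.4 and 44.4 CPM. Replicate 2 was the lowest of its group in all 3 groups. Its FPKM values were 4.10, 2.94 and 5.10 in EE-IVF and 2.89, 0.998 and 2.03 in EE-AI, over 9366 bases.

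ENSBTAG00000012705 had the lowest p of the genes lower in EE-IVF. It was at 81, 115 and 95.6 CPM in EE-IVF and at 116, 166 and 143 CPM in EE-AI. The groups did not overlap but nearly met, with EE-IVF replicate 2 at 115 and EE-AI replicate 1 at 116 CPM. Within the pairs the difference was almost the same, -0.51, -0.52 and -0.57 on the log2 scale. The means were 97.3 ± 17.2 and 141 ± 25.1 CPM (SD, n = 3), and the estimate was -0.54 on the log2 scale (95% interval -0.78 to -0.30), at an adjusted p of 0.458 by edgeR and 0.102 by DESeq2. EE was at 74.4, 134 and 111 CPM. Over 5714 bases, EE-IVF had 14.5, 19.7 and 16.5 FPKM and EE-AI had 20.1, 29.2 and 24.7 FPKM.

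ENSBTAG00000011905 was the other gene named as lower, at 36.9, 102 and 76.9 CPM in EE-IVF and at 55.1, 127 and 125 CPM in EE-AI. The groups overlapped widely, since replicate 1 was lowest in both, and EE-IVF was lower in every pair, by -0.57, -0.31 and -0.69 on the log2 scale. With means of 72.0 ± 32.8 and 102 ± 40.8 CPM (SD, n = 3), it had an estimate of -0.53 on the log2 scale (95% interval -0.78 to -0.27) and an adjusted p of 0.458 by edgeR and 0.159 by DESeq2. EE was at 43.4, 103 and 77.7 CPM. Per length over 5980 bases it had 6.32, 16.7 and 12.7 FPKM in EE-IVF and 9.15, 21.4 and 20.6 FPKM in EE-AI.

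**Figure D3:**
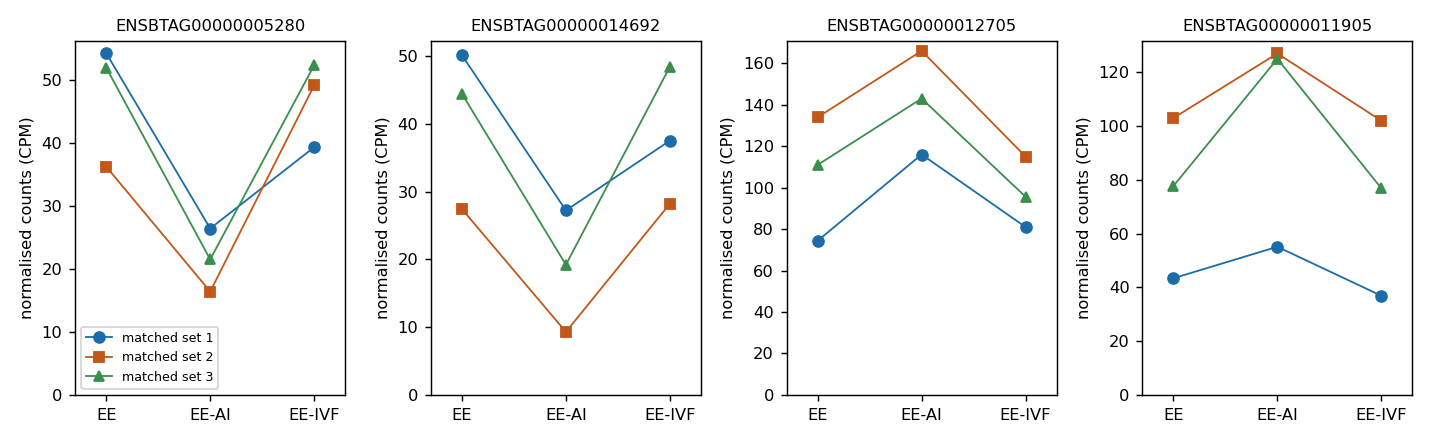
Normalised counts (CPM, axis from 0) of the 4 named genes in each explant library, with lines joining the 3 libraries of a matched set. In the 2 genes on the left every EE-AI library is below the EE and EE-IVF libraries of its set, and in the 2 on the right it is above them. All 4 were picked by p between EE-IVF and EE-AI, so EE, set against the same EE-AI values, is not an independent reference.

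Over all genes, the direction held in every matched pair less often than not. EE-IVF was above EE-AI in all 3 pairs in 2405 genes (16.0%) and below in all 3 in 2233 genes (14.8%), and the signs were mixed in 10439 genes (69.2%). Every EE-IVF library exceeded every EE-AI library in 421 genes (2.79%), and the reverse held in 457 (3.03%). Among the 840 higher genes by edgeR at an unadjusted p under 0.05, 777 had the same sign in all 3 pairs and 202 had groups that did not overlap. Among the 403 lower genes these counts were 382 and 138. Having been picked by p, these genes had to lean this way, so the counts are a description.

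The pairs did not contribute equally. Past a 2-fold difference, EE-IVF was above EE-AI in 126 genes and below in 106 in set 1, in 197 and 169 genes in set 2, and in 448 and 209 genes in set 3. Among the 840 higher genes the median log2 CPM difference was 0.27 in set 1, 0.52 in set 2 and 0.59 in set 3. Among the 403 lower genes it was -0.38, -0.43 and -0.41. The higher genes thus had their smallest median in set 1, whereas the lower genes differed about equally in the 3 sets.

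The 20 genes called by DESeq2 are all among these 840 higher genes, so their values are a closer description of the same set. Their log2 fold changes by DESeq2 ran from 0.64 to 1.45 with a median of 0.95. Picked by p, they had to lean towards EE-IVF: all 20 were above 0 in the 3 pairs (16.0% of all genes), and in 7 the groups did not overlap (2.79% of all genes). Their median pair difference was 0.40 in set 1, 1.12 in set 2 and 1.31 in set 3. At the median of the 20 genes, EE-AI was at 83.3, 49.4 and 31.3 CPM in replicates 1, 2 and 3, EE-IVF at 108, 91.4 and 99.9 CPM, and EE at 101, 89.9 and 72.6 CPM. By edgeR all 20 had an unadjusted p between 9.34e-05 and 0.00417, and an adjusted p of 0.458.

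The edgeR calls turned on EE-AI replicate 1. Without it, edgeR called 24 genes, all higher in EE-IVF. Of these, 13 were among the 20 of DESeq2, and 23 had also been tested with all libraries. The gene not tested with all libraries was ENSBTAG00000052217, described below. It enters through the libraries in which it is high, and its call supports nothing. Without the whole of matched set 1 edgeR called 11 genes, 10 of them higher, and 9 of the 11 were shared with the 24. The 23 genes had mean levels between 15.9 and 2100 CPM and were picked after their values were seen, so what follows is a description. Their median pair difference was 0.27 in set 1 (from -0.05 to 0.63), 1.24 in set 2 (from 0.76 to 1.78) and 1.39 in set 3 (from 0.85 to 2.20). Summed over the 23 genes, EE-AI was at 7490 CPM in replicate 1, 1330 in replicate 2 and 1820 in replicate 3. EE-IVF was at 8440, 3100 and 4620 CPM, and EE at 8280, 3340 and 4550 CPM. At the median of the 23 genes, EE-AI was at 82.3, 21.3 and 20.1 CPM, EE-IVF at 99.6, 51.4 and 55.3, and EE at 95.8, 53.6 and 44.4. Set 1 thus stood high in all 3 treatments, and in sets 2 and 3 EE-AI alone was low while EE and EE-IVF lay near each other. Picked by p without EE-AI replicate 1, these genes had to lean towards EE-IVF in sets 2 and 3. Low EE-AI values in these sets favoured the pick and also place EE-AI below EE. EE is therefore not an independent reference here, and which group differed was not tested. Of the named genes, ENSBTAG00000014692 was among the 24 (adjusted p 0.0278 by edgeR without that library), and ENSBTAG00000005280 was at 0.053 without that library and at 0.0476 without set 1.

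**Figure D4:**
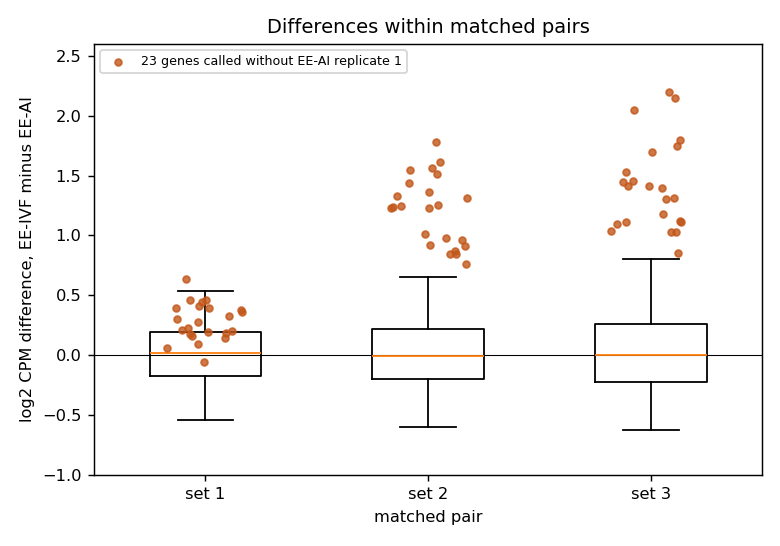
Log2 CPM difference of EE-IVF minus EE-AI within each matched pair. Boxes give the quartiles and whiskers the 5th and 95th percentiles of all 15077 genes, and points are the 23 genes that edgeR called without EE-AI replicate 1; their medians are 0.27, 1.24 and 1.39 in sets 1, 2 and 3.

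No gene was detected with 1 kind of embryo alone in every replicate at 5 counts or more. Over the whole table of 18180 genes, 0 had at least 5 counts in each EE-IVF library and 0 counts in each EE-AI library, and 0 showed the reverse. Counts in EE-IVF with none in EE-AI were found for 34 genes, and counts in EE-AI with none in EE-IVF for 39. These were low, with sums over 3 libraries of at most 9 counts in EE-AI and, leaving out 1 gene, at most 9 counts in EE-IVF.

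The exception was ENSBTAG00000052217, which was named after its values were seen. It had 383, 0 and 240 counts in EE-IVF replicates 1, 2 and 3, 0 in each EE-AI library, and 1, 0 and 0 in EE. Scaled by the library total alone, without TMM, this is 57.9 and 34.8 CPM in EE-IVF replicates 1 and 3, or 42.7 and 25.7 FPKM over 1356 bases. On that scale a count of 0 allows up to between 0.371 and 0.494 CPM in the EE-AI libraries (3 counts, counting error only). With all libraries the filter on low counts removed it. Where it did enter a fit it did so through the EE-IVF libraries in which it was high. Its calls are listed at the end, support nothing and are given without a p-value.

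The number of genes at an unadjusted p under 0.05 was lowest without the matching, while the number past the adjusted threshold was 0 with and without it. Without the block, edgeR called 0 genes, and 219 (1.45%) were under an unadjusted p of 0.05, with 157 above 0 and 62 below. With the 6 libraries of EE-AI and EE-IVF alone and the block, 892 were higher and 391 lower, close to the values with EE in the fit. Higher genes outnumbered lower ones under each of the 19 settings tried, with shares of higher genes between 55% and 79.6%. The share was lowest without matched set 3, where 581 genes were higher and 475 lower.

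**Figure D5:**
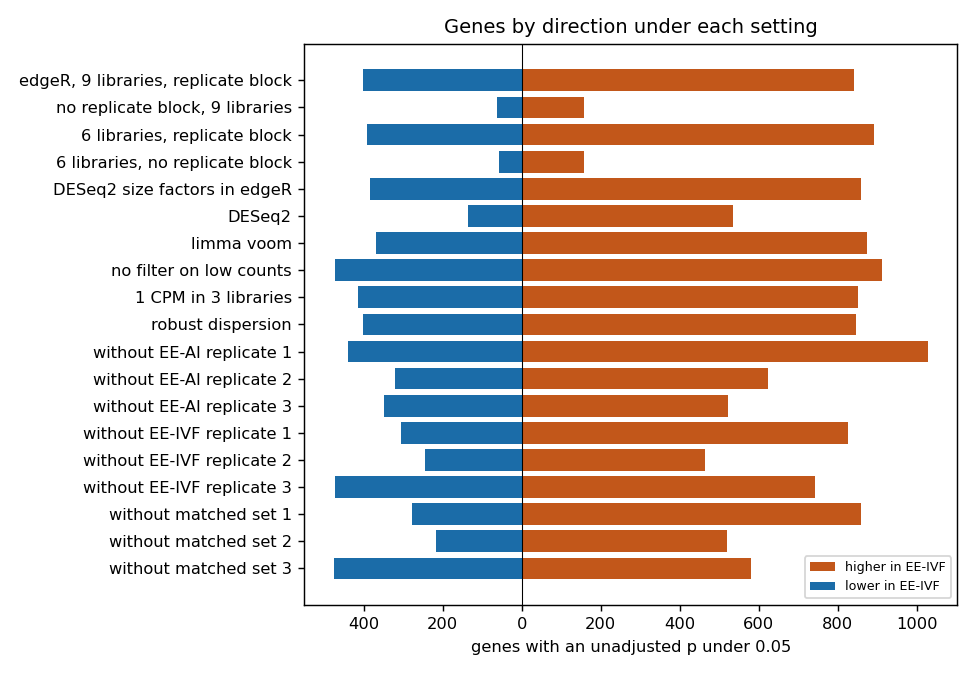
Genes with an unadjusted p under 0.05 under each setting, with bars to the right for genes higher in EE-IVF and to the left for genes lower. The setting of the text is on top (840 and 403), and the shortest bars are those without the block (157 and 62 with 9 libraries, 157 and 58 with 6).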

How the data were processed

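For the 9 explant libraries the authors deposited whole-number counts and FPKM. The deposited counts carry no normalization. The deposited FPKM equal the counts over 1 length per gene and over the library total, with a length within 0.0001 of a whole number for all 18177 genes with counts, so they served only for gene lengths and levels per length. Trim Galore, cutadapt, STAR, featureCounts and DESeq2 are named in the submitters' processing notes. Of these tools the roles and versions, as of the reference the build and annotation, were not given in the sources used here. Per the labels' protocols, a stranded mRNA kit was used on DNase-treated total RNA.

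Genes were kept with filterByExpr by group (15077 of 18180) and scaled by TMM. The main test was the edgeR quasi-likelihood F test on 9 libraries with treatment and matched set as terms (4 residual degrees of freedom), with Benjamini-Hochberg adjustment over all genes and a threshold of 0.05. Each standard error was derived as the absolute log2 fold change over the square root of F. The 95% intervals were built from it by the t distribution. CPM of genes tested are TMM-normalised, and pair differences are of log2(CPM + 0.5). The rule of the comparison sets the matching by title number. Deviations from the group means correlated within sets for all 9 pairs of libraries (0.413 to 0.741 across genes), and between sets from -0.548 to 0.057. Deviations cancel over the libraries of a group, so positive values within sets push those between sets down. Of the libraries of a group, 0 pairs were identical.

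The rule named, in each direction, the 2 IDs with the lowest p whose mean reached 1 CPM in EE-AI or EE-IVF and whose sign was the same in the 3 pairs. The comparison, lists and rule were chosen with earlier results of these data known. The edgeR test, but not DESeq2 or limma voom, was checked on simulated counts. Tests ran in R 4.3.3 with DESeq2 1.42.0, edgeR 4.0.16 and limma 3.58.1, and plots in Python 3.11.15 with matplotlib 3.10.9. The corpus luteum table was not used here.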

Additional observations from a re-analysis of the deposited data

How the results depend on the processing

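The number of genes past an adjusted p of 0.05 was 0 with edgeR without the replicate block, with 6 libraries with or without it, with DESeq2 size factors, with a minimum of 1 CPM in 3 libraries, with a robust dispersion and with limma voom. It was 20 with DESeq2 and 1 without a filter on low counts, and between 0 and 24 when a library or a matched set was left out. The number higher in EE-IVF at an unadjusted p under 0.05 was 157 without the replicate block with 9 and with 6 libraries, 535 with DESeq2, and between 465 and 1028 when a library or set was left out. The number lower was 62 and 58 without the block, 137 with DESeq2, and between 216 and 475 with a library or set left out. Counts moved by over 1.5 times without EE-AI replicate 3 (523 higher), without EE-IVF replicate 2 (465 higher and 245 lower) and without matched set 2 (519 and 216). The calls were 24 without EE-AI replicate 1, with ENSBTAG00000052217 among them, and 11 without matched set 1. The 1 call without EE-AI replicate 2, EE-AI replicate 3, EE-IVF replicate 2 or matched set 2 was ENSBTAG00000052217. That gene, also the 1 called without a filter, enters through the libraries in which it is high, and its calls support nothing. DESeq2 gave no adjusted p for 4093 genes. The 4 named genes kept their direction under all 19 settings. The planned counts of gene lists and cell type markers were not run, since no ID could be paired with a symbol. Among the least abundant 5th of genes, 44.1% of the 95% intervals by edgeR with the block lay within a 2-fold difference in either direction.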
